A study of Mangifera indica with 4 samples.

Results

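Spongy flesh of Alphonso mango was set against healthy flesh at the mid ripe stage, 10 days after harvest, in the 22200 assembled transcripts that had a mean normalized count of at least 50. These are 72.6% of the 30582 transcripts listed and belong to 10186 of 14276 assembly loci. The mean is the authors' deposited one over all 4 libraries of the series, so it also counts reads from 5 days. The groups were spongy fruit mesocarp at 10 days and healthy fruit mesocarp at 10 days, each from the cultivar Alphonso and each 1 library of total RNA. The same transcripts were also read in spongy and in healthy fruit mesocarp at 5 days after harvest, the table green stage, again 1 library each. With 1 library per group no difference has a replicate check and no test was run, so every statement is about these libraries. The sources used here do not say whether a library holds 1 fruit or several.

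Mango is a climacteric fruit, in which an ethylene-driven burst after harvest goes with softening of the wall, breakdown of starch into sugars, and build-up of carotenoids and aroma in the mesocarp, the edible flesh. Spongy tissue is a disorder of this ripening, known mainly from Alphonso, in which part of the flesh becomes pale, corky and sour while the peel looks sound. The tables list transcripts of an assembly without a genome by number only, with no gene name beside them. None of the numbers matched the table of mango genes at hand (0 of 38372 genes), so no gene, pathway or tissue marker could be looked up. Whether the libraries carry the markers of mesocarp was therefore not checked. What each number does give is the locus (a group of assembled sequences that overlap, such as splice forms, alleles or close copies), how many transcripts the assembly counts in that locus, and the transcript length. The size of the difference was described by these features and by level.

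The recovered reads came to 56590744 in spongy and 75039503 in healthy flesh at 10 days. Loci 2 and 3 took 65.7% of them in spongy flesh (Wilson interval 65.717 to 65.742%) and 86.95% in healthy flesh (86.943 to 86.958%), which left a smaller share of the healthy reads for the rest. The median transcript of the 22200 had 327 reads in spongy and 99 in healthy flesh, and 0 and 15 of them had no read there. Intervals are 95% intervals for counting error only, and reads are not independent molecules. The sources used here do not say how reads that match several transcripts of a locus were counted.

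Ratios are log2 of spongy over healthy, with 1 added to each normalized level. They use the authors' size factors, and every direction and share 2-fold apart below is on that scale unless another is named. With the same total of reads in each library instead, the median log2 ratio of the 22200 transcripts was 1.93 in place of 0.02. Equal totals outside loci 2 and 3 gave 0.54. Each of these scalings moves all transcripts by almost the same amount, so that differences between class medians hardly move. Transcripts of 3000 nt or more, for example, lay 0.28 below the median of all 22200 on the authors' scale and 0.27 below it with the same total per library. The shares 2-fold apart do move. With the same total per library 111 of 152 transcripts under 300 nt were 2-fold apart and 1748 of 2079 at 3000 nt or more. At means of 50 to 100 it was 3479 of 4055, and at 5000 or more 510 of 726. Both orders are the reverse of those on the authors' scale.

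At 10 days spongy flesh held 3576 transcripts at 2-fold or more over healthy flesh and 2203 at 2-fold or more under it, which is 16.1% and 9.92% of the 22200. Over all 30577 transcripts with any read these shares were 18.5% and 12.4%, so leaving out the low levels lowered both. In such bulk RNA fewer cells of a type and less RNA per cell cannot be told apart. A 4-fold difference was found for 1719 transcripts higher in spongy flesh (7.74%, against 9.02% of all) and 456 lower (2.05%, against 2.84% of all). The middle of the distribution was narrow, with quartiles at log2 ratios of -0.48 and 0.60. Its upper end was the longer one, with 5% of transcripts above 2.80 and 5% below -1.38. Of the transcripts 2-fold apart 61.9% were higher in spongy flesh, and that share was 99.3% with the same total per library (19609 higher and 130 lower). Equal totals outside loci 2 and 3 gave 6426 higher and 874 lower.

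Counting error was small beside these differences. The interval of the ratio left out 1 for 3573 of the 2-fold higher transcripts and 2202 of the lower ones, against 16.2% and 10.9% of all transcripts in the same terms. Choosing transcripts at 2-fold with a mean of at least 50 made that nearly certain. The interval lay wholly beyond 2-fold for 2485 transcripts higher in spongy flesh (9.99% of all transcripts met this) and 1270 lower (4.94% of all). Choosing transcripts by a mean over the libraries lets in some that are present in 1 library only and so had to differ. A level of at least 50 was reached in both 10-day libraries by 19442 transcripts, in spongy flesh alone by 1745 and in healthy flesh alone by 804. Among the 19442, spongy flesh had 2122 transcripts 2-fold or more higher and 1745 lower by as much. Just inside the minimum, 31.3% of 572 transcripts with a mean of 50 to 55 were 2-fold apart, and just outside it 31.9% of 609 with a mean of 45 to 50.

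Classed by the mean over the 4 libraries, the spread of the ratio was smallest at middle levels and widest at the top. At means of 50 to 100 the 4055 transcripts were 2-fold apart in 30.5% of cases, against a background of 30.9% over all transcripts. That share was 25.1% at 100 to 200, 22.4% at 200 to 500 and 21.5% at 500 to 1000. It was 28.8% at 1000 to 5000 and 47.8% among the 726 transcripts at 5000 or more. The distance between the quartiles followed the same course, with log2 widths of 1.26, 1.13, 0.98, 0.96, 1.15 and 2.15 from the lowest class to the highest. Reads were scarcest in the lowest class, where the median transcript had 27 healthy reads, yet the median counting error of a log2 ratio was 0.33 there and the spread, as a standard deviation taken from the quartiles, was 0.94. In the highest class these were 0.02 and 1.59. The levels are not divided by length, and longer transcripts had higher means (Spearman correlation 0.56 across the 22200). Classed by mean per 1000 nt, the share 2-fold apart was lowest at 100 to 200, with 21.7%, and highest at 5000 or more, with 77.5% of 396 transcripts. The mean includes both 10-day levels that form the ratio. Classed by the level at 5 days, 56.4% of 697 transcripts under 50 were 2-fold apart, with quartiles 3.97 apart. At 500 to 1000 the share was 20.9%, and at 5000 or more it was 43.9%, with quartiles 1.81 apart. Those under 50 at 5 days reached the minimum of the mean only through their 10-day levels.

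**Figure D1:**
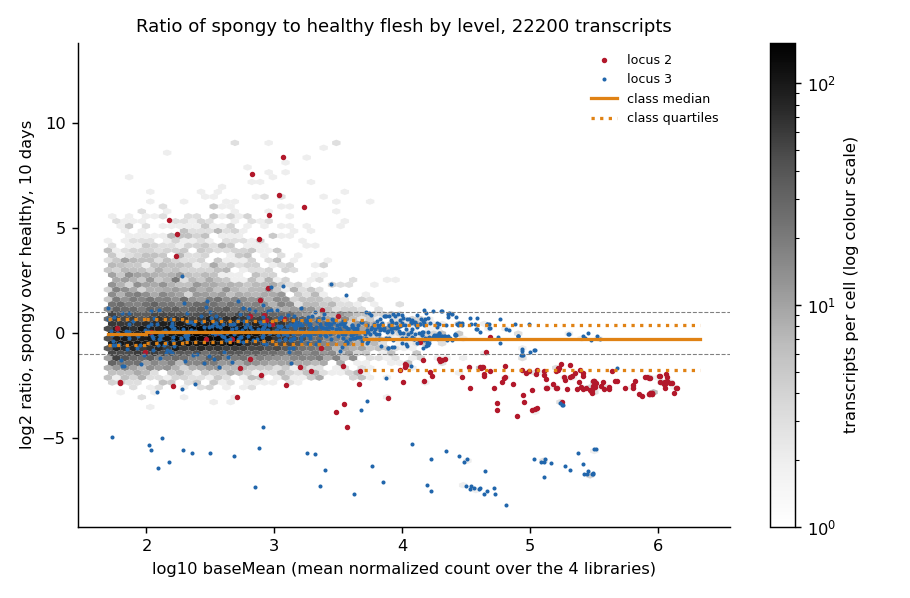
Log2 ratio of spongy over healthy flesh at 10 days against log10 of the mean normalized count over the 4 libraries, for 22200 transcripts. Grey cells count transcripts on a log colour scale, red and blue points are the transcripts of loci 2 and 3, orange lines are the median and the quartiles of each level class, and dashed lines mark 2-fold. On the authors' scaling the quartiles lie closest together at 500 to 1000 (0.96 apart) and widest at 5000 or more (2.15 apart), where most of locus 2 lies.

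The direction also changed at the top. Transcripts at 5000 or more were at least 2-fold lower in spongy flesh in 37.6% of cases and higher in 10.2%, while at 500 to 1000 these shares were 6.98% and 14.6%. Loci 2 and 3 supplied 53.3% of that highest class. Without them its 339 transcripts were lower in 28.3% and higher in 20.6%, and their median log2 ratio was -0.23, against -0.31 with them. Equal totals per library moved the median of the whole class to 1.61, so its direction against 0 depends on the scaling, while it stayed below the other classes. All but 3 of the 130 transcripts of locus 2 in this class were at least 2-fold lower in spongy flesh, with a median log2 ratio of -2.31. For all 171 transcripts of locus 2 the median was -2.15, and it was -0.23 with the same total per library, still on the same side of 0.

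Locus 3 was divided at a log2 ratio of -4, a cut made after its values were seen. Of its 594 transcripts, 536 lay above the cut, from -3.65 to 2.70, with a median log2 ratio of 0.12. Of these 536, 29 were at least 2-fold lower in spongy flesh and 25 at least 2-fold higher. The other 58 lay between -8.18 and -4.48, with a median of -6.34, or -4.42 with the same total per library. The 58 were chosen by their 10-day ratio, so their shares of the 10-day reads had to differ in this direction. This group held 0.448% of the reads of spongy flesh at 10 days (Wilson interval 0.446 to 0.450%) and 9.50% of those of healthy flesh (9.491 to 9.504%). At 5 days it held 0.778% of the reads of spongy flesh (0.776 to 0.780%) and 0.808% of those of healthy flesh (0.805 to 0.810%). The healthy library of 10 days was high in these transcripts beside the spongy one, as the cut required. The other 3 libraries were alike within a factor of 2 in share. Their median length was 1460 nt, against 4999.5 nt for the rest of the locus.

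On the authors' scaling shorter transcripts were more often 2-fold apart than longer ones. Those at least 2-fold apart made up 63.8% of 152 transcripts under 300 nt and were 259 of 648 at 300 to 500 nt. The share was 30.5% at 500 to 1000 nt, 24.8% at 1000 to 1500, 24.3% at 1500 to 2000, 22.3% at 2000 to 3000 and 19.4% of 2079 transcripts at 3000 nt or more. The quartiles lay 2.999 apart in the shortest class and 0.88 in the longest. Counting error was less than the spread: its median was 0.27 at 500 to 1000 nt and 0.08 at 3000 nt or more, beside standard deviations from the quartiles of 0.94 and 0.65. Length went with direction too, though not evenly. Under 300 nt 40 of 152 were higher in spongy flesh (26.3%) and 57 lower (37.5%), with a median log2 ratio of -0.19. At 300 to 500 nt 162 of 648 were higher in spongy flesh and 97 lower, at 2000 to 3000 nt the shares were 11.2% and 11.1%, and at 3000 nt or more they were 4.76% and 14.7%.

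**Figure D2:**
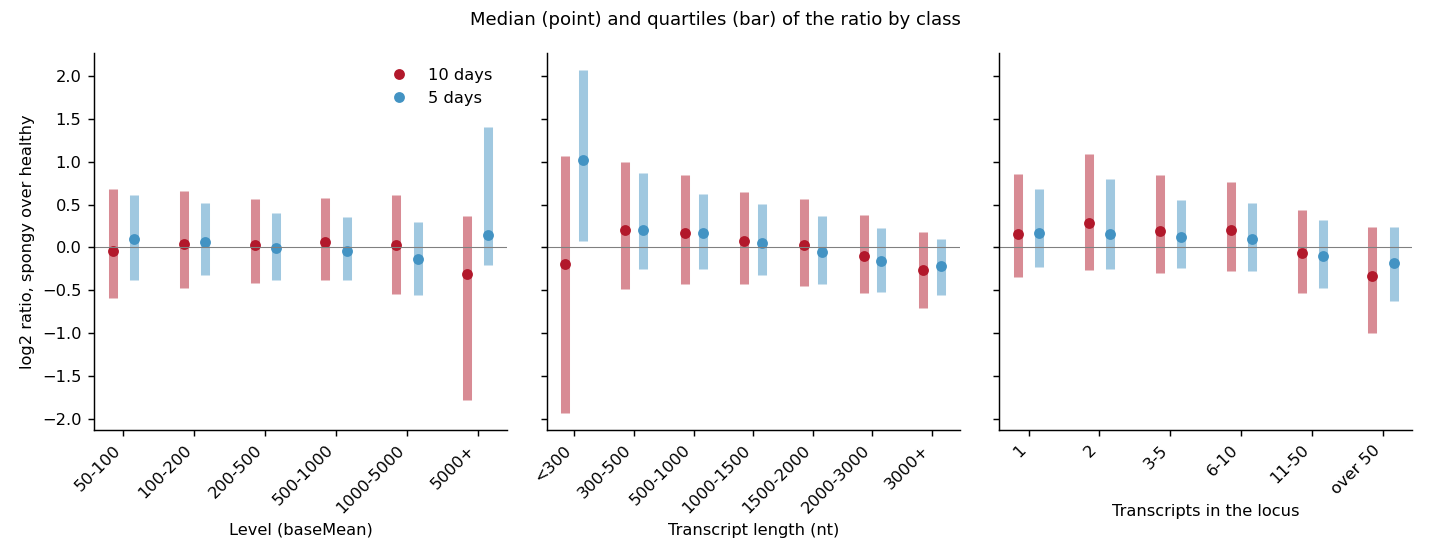
Median (point) and quartiles (bar) of the log2 ratio of spongy over healthy flesh for the 22200 transcripts, by mean level, by length in nt and by the number of transcripts in the locus, at 10 days (red) and at 5 days (blue). On the authors' scaling the 10-day median is -0.19 under 300 nt and runs from 0.20 at 300 to 500 nt down to -0.26 at 3000 nt or more, and from 0.16 in loci of 1 transcript to -0.33 in loci of over 50; with the same total per library all of these medians are above 0.

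The trend with length was also seen within some classes of level, but not at the lowest levels. At means of 200 to 500, where all transcripts had similar counts, 46.1% of 89 transcripts of 300 to 500 nt were 2-fold apart. The share was 30.2% at 500 to 1000 nt, 21.1% at 1500 to 2000 nt, 17.4% at 2000 to 3000 nt and 16.2% at 3000 nt or more. At means of 50 to 100 it turned upward with length, from 26.2% at 1000 to 1500 nt to 45.8% of 118 transcripts at 1500 to 2000 nt and 66.7% of 12 at 2000 to 3000 nt. At 100 to 200 it was 22.1% at 1000 to 1500 nt, 24.5% at 1500 to 2000 nt, 29.1% of 275 at 2000 to 3000 nt and 33.3% of 24 at 3000 nt or more. At 200 to 500 the part higher in spongy flesh carried the trend, with 41.6% at 300 to 500 nt against 6.27% at 3000 nt or more, while the part lower was 4.49% and 9.97%. At means of 5000 or more the order was carried by the other direction. There 85.7% of 28 transcripts under 300 nt and 83.3% of 24 transcripts of 300 to 500 nt were lower in spongy flesh, against 27.1% of 328 transcripts of 3000 nt or more.

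**Figure D3:**
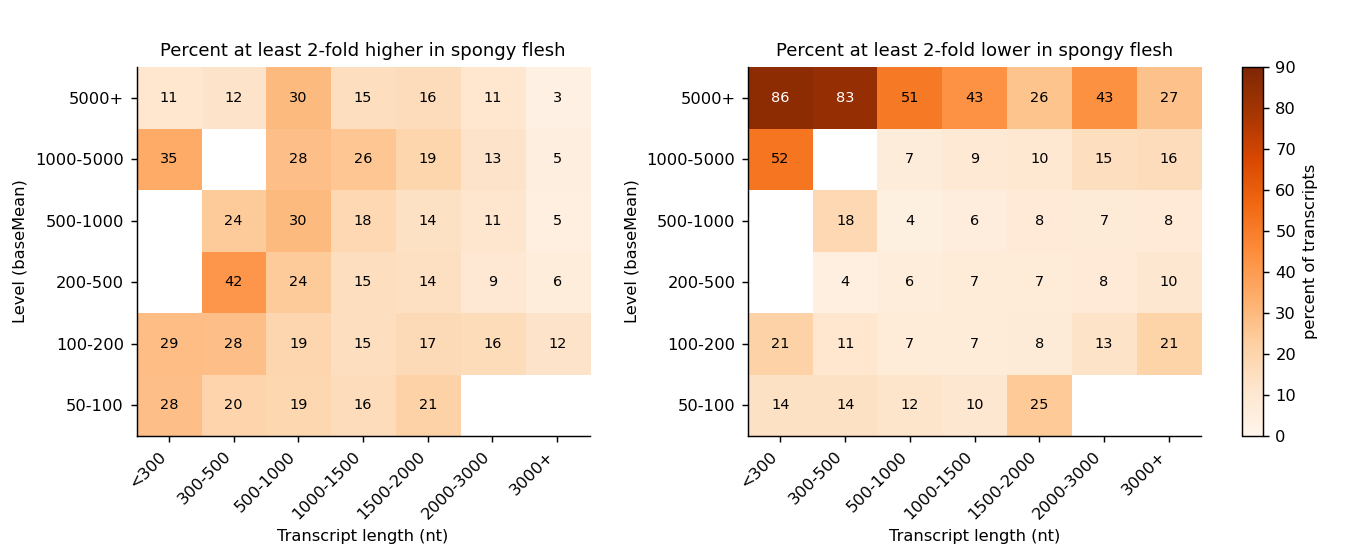
Percent of transcripts at least 2-fold higher (left) and at least 2-fold lower (right) in spongy than in healthy flesh at 10 days, on the authors' scaling, by mean level (rows) and length in nt (columns). Cells with fewer than 20 transcripts are blank; the higher share falls with length at 200 to 500 (41.6 percent at 300 to 500 nt, 6.27 at 3000 nt or more), and the lower share is highest among short transcripts at 5000 or more (85.7 percent under 300 nt).

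Over all locus numbers together, loci with few transcripts leaned towards spongy flesh and loci with many towards healthy flesh. In loci of 1 transcript 977 of 4361 were 2-fold or more higher in spongy flesh (22.4%) and 277 lower (6.35%). In loci of 2 transcripts 27.3% were higher and 5.70% lower, and in loci of 3 to 5 transcripts 536 and 105 of 2500. At 6 to 10 transcripts the shares were 19.2% and 5.29%, and at 11 to 50 they came to 12.8% and 9.89%. In loci of over 50 transcripts 202 of 3092 were higher (6.53%) and 773 lower. Without loci 2 and 3 the last class had 7.09% higher and 23.3% lower. With them its median of -0.33 was 1.57 with the same total per library, again below that of loci of 1 transcript, at 2.07. The total share 2-fold apart varied less, from 22.7% at 11 to 50 transcripts to 33.0% at 2.

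Transcripts of the same locus mostly had like ratios. Outside loci 2 and 3, 4054 loci had 2 or more of the 22200 transcripts. In 72.8% of them all ratios lay within 2-fold of each other, and the median range was 0.57 on the log2 scale. In 1795 loci with exactly 2 such transcripts the median difference between them was 0.34, and the mean ratios of these loci had quartiles 0.96 apart. A median difference and a distance between quartiles are unlike measures, and transcripts of different loci were not paired for comparison. In 362 loci every transcript was higher in spongy flesh by 2-fold or more, and in 76 every transcript was lower. In 56 loci, 1.38%, at least 1 transcript was 2-fold higher and another 2-fold lower. Transcripts of a locus share sequence and reads, so they are not independent observations.

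The lean of the small loci differed with where they stand in the numbering of the assembly. In loci 1 to 5500 the 1560 transcripts that are alone in their locus were 2-fold higher in spongy flesh in 6.41% of cases and lower in 7.63%. Above locus 5500, 31.3% of 2801 such transcripts were higher and 5.64% lower. Loci of 11 to 50 transcripts there leaned to spongy flesh too, with 29.5% higher and 2.85% lower. In loci 1 to 5500 the shares were 13.7% and 5.83% at 6 to 10 transcripts and 6.39% and 25.2% at over 50. The Spearman correlation of the log2 ratio with transcripts in the locus was 0.008 above locus 5500. It was -0.20 in loci 1 to 5500 and -0.24 over all 22200. The boundary was rounded from one that earlier work chose on these ratios, so it describes them and is no test. Within loci 1 to 5500 the share 2-fold apart was 14.04% in loci of 1 transcript and between 17.02% and 21.003% in loci of 2 to 50. It was 31.6% in loci of over 50. Above locus 5500 it was 37.0% in loci of 1 transcript, 46.2% in loci of 2 and 32.3% in loci of 11 to 50. Depth differed too, with a median of 37 healthy reads per transcript above locus 5500 and 156 below, and its part in the result was not tested. The trend with length was present on both sides, though not in every step. In loci 1 to 5500 25.5% were 2-fold apart at 500 to 1000 nt, 19.5% at 1500 to 2000 nt and 19.1% at 3000 nt or more. Above locus 5500 these shares were 39.4%, 38.01% and 22.3%.

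**Figure D4:**
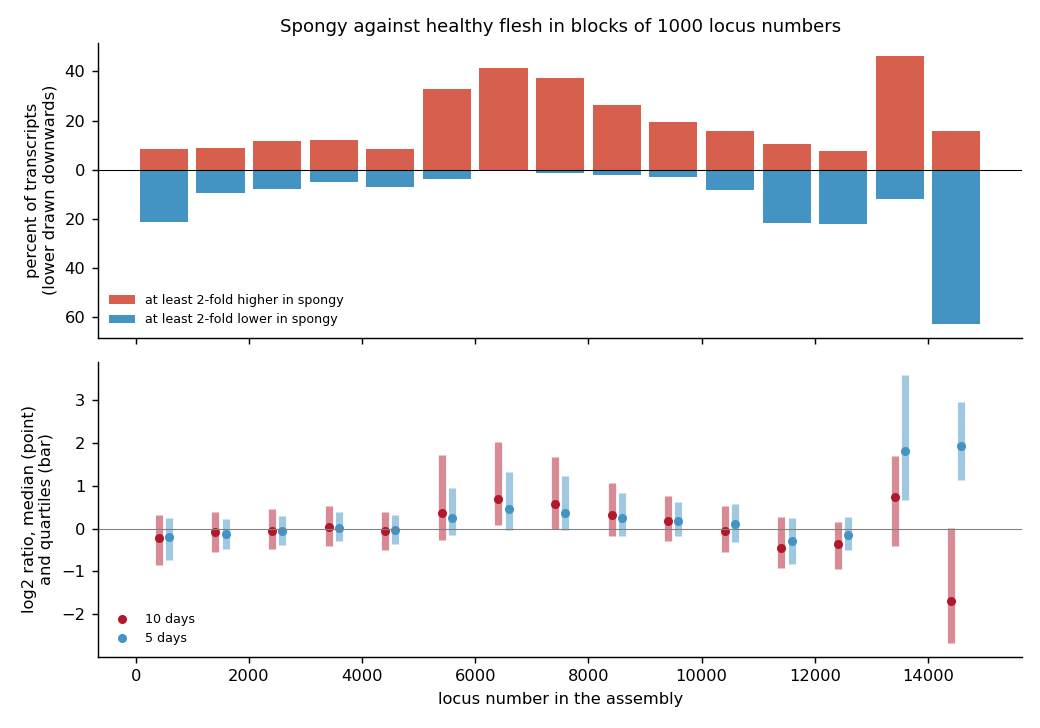
Spongy against healthy flesh in blocks of 1000 locus numbers. Above, percent of transcripts at least 2-fold higher (up) and at least 2-fold lower (down) in spongy flesh at 10 days; below, median (point) and quartiles (bar) of the log2 ratio at 10 days (red) and 5 days (blue), all on the authors' scaling. The higher share is 41.2 percent in the block that ends at 7000 and 46.3 in the block of 67 transcripts that ends at 14000, and in the last block the medians lie on opposite sides, -1.70 at 10 days and 1.92 at 5 days (0.21 and 1.16 with the same total per library).

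Blocks of 1000 locus numbers, which no ratio set, showed the same lean between loci 5000 and 11000, but not in most later blocks. Up to locus 5000 between 8.34% and 12.2% of transcripts per block were higher in spongy flesh. The next blocks had 32.8%, 41.2%, 37.3%, 26.2%, 19.4% and 15.5%, up to locus 11000. Lower transcripts made up 21.2% of the first block and 0.628% of the block that ends at 7000. In 3 of the 4 blocks beyond locus 11000 lower transcripts outnumbered higher ones. Lower were 21.7% of 332 transcripts up to locus 12000, 22.3% of 121 up to 13000, 11.9% of 67 up to 14000 and 63.2% of 76 beyond. Higher in the last 3 of these blocks were 7.44%, 46.3% and 15.8%. In the later loci, up to a mean of 5000, higher classes of level had higher ratios. Above locus 5500 the median log2 ratio was 0.22 at means of 50 to 100, 0.54 at 200 to 500, 1.46 at 500 to 1000 and 5.02 at 1000 to 5000. The 40 transcripts there at 5000 or more went the other way, with a median of -1.65. Those means include the spongy reads of 10 days. Classed by the level at 5 days instead, which shares no library with the ratio, the medians were 0.16, 0.49, 1.21 and 3.82 for the same limits, and -1.09 at 5000 or more. In loci 1 to 5500 the first 4 were -0.32, -0.09, 0.02 and 0.01. The transcripts classed by the 5-day level were still those admitted by the mean over all 4 libraries. Their 5-day ratio also went with the 10-day ratio above locus 5500 (Spearman correlation 0.64).

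Some transcripts were nearly missing from healthy flesh. A level of at least 100 in spongy flesh with at most that of 3 reads in healthy flesh, a normalized 7.71, was found for 164 transcripts of 143 loci, or 0.739% of the 22200, against 0.677% of all transcripts. The reverse was found for 7 transcripts, against 0.036% of all. These limits were set after the data were seen. They are limits on the 10-day levels, so the 10-day reads and levels of the 164 had to differ in this direction. The 164 held 0.243% of the reads of spongy flesh (Wilson interval 0.242 to 0.244%) and 0.000401% of those of healthy flesh (0.000358 to 0.000449%). Their median level was 288 in spongy flesh and 5.14 in healthy flesh at 10 days. At 5 days it was 131 in spongy and 4.90 in healthy flesh, and 146 of the 164 were at least 2-fold higher in spongy flesh. The 5-day levels took part in choosing these 164, through the minimum of the mean. Without that minimum 207 transcripts met the limits at 10 days, and at 5 days their median level was 91.5 in spongy and 3.81 in healthy flesh, with 175 of them higher in spongy flesh by 2-fold or more. Only 11 of the 164 lay in loci 1 to 5500, while 69 lay between there and locus 6500 and 84 beyond.

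For single transcripts, those alone in their locus, of at least 1000 nt and with a mean of at least 200 were considered, 1925 in all, since their reads are not split among forms of 1 locus. Locus_7145_Transcript_1_1_Confidence_0.000_Length_1351 had a normalized level of 3542 in spongy flesh at 10 days (3930 reads), 5.14 in healthy flesh at 10 days (2 reads), 33.9 in spongy flesh at 5 days (43 reads) and 14.2 in healthy flesh at 5 days (26 reads). It was high in the spongy library of 10 days alone, at a ratio of 689 (191 to 5694) that rests on 2 healthy reads. At 5 days its ratio was 2.40 (1.44 to 4.06), or 1.40 (0.841 to 2.37) with the same total per library, where the interval held 1. Ratios of single transcripts that carry an interval are of the levels with nothing added, unlike the log2 ratios. Locus_8432_Transcript_1_1_Confidence_0.000_Length_1054 had levels of 1483 in spongy and 2.57 in healthy flesh at 10 days, and 173 in spongy and 3.27 in healthy flesh at 5 days. It was thus high in both spongy libraries and near the limit of 1 to 6 reads in both healthy ones, with a ratio of 577 (103 to 22806) at 10 days, on 1 healthy read, and 52.9 (23.9 to 146) at 5 days.

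In the other direction the single transcripts went less far. Locus_1060_Transcript_1_1_Confidence_0.000_Length_1601 had levels of 297 in spongy and 4967 in healthy flesh at 10 days, and 68.7 in spongy and 62.6 in healthy flesh at 5 days. The healthy library of 10 days stood apart from the others, and the level was 16.7-fold lower in spongy flesh at 10 days (14.9 to 18.8) while the interval of the 5-day ratio, 0.820 to 1.46, held 1. Locus_1622_Transcript_1_1_Confidence_0.000_Length_1747 had 38.8 in spongy and 619 in healthy flesh at 10 days, and 125 in spongy and 226 in healthy flesh at 5 days. It was lower in spongy flesh at both stages, 16.0-fold (11.5 to 22.6) at 10 days and 1.81-fold (1.50 to 2.19) at 5 days. On equal totals per library locus 1622 was 4.23-fold lower (3.05 to 5.99) at 10 days and 3.10-fold lower (2.58 to 3.75) at 5 days. Locus 1060 was then 4.42-fold lower (3.93 to 4.98) at 10 days and 1.56-fold lower (1.17 to 2.09) at 5 days. The 10-day ratios of loci 7145 and 8432 were 2606 (721 to 21523) and 2181 (391 to 86208) on that scale. With 1 added to each level, the log2 ratio of the 1925 transcripts ran from -4.06 to 9.17. Of the 1925, 199 were at least 4-fold higher in spongy flesh (10.3%, against 9.02% of all transcripts) and 15 at least 4-fold lower (0.779%, against 2.84% of all).

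**Figure D5:**
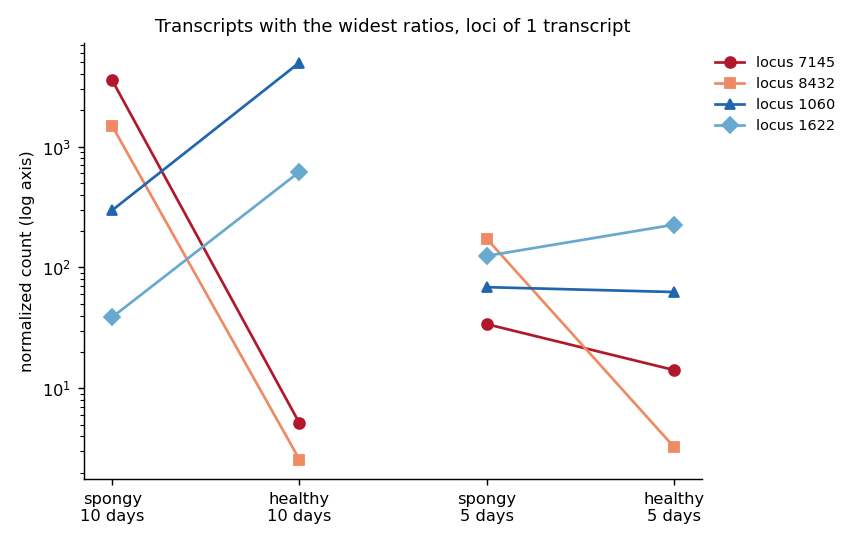
Normalized counts (log axis) in spongy and healthy flesh at 10 days and at 5 days, 1 library each. Shown are the transcripts with the 2 highest and the 2 lowest 10-day ratios among 1925 candidates. The candidates are alone in their locus, at least 1000 nt long and at a mean of at least 200. Lines join the libraries of 1 stage; locus 8432 is high in both spongy libraries (1483 and 173), whereas locus 1060 is high in the healthy library of 10 days (4967).

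The libraries of 5 days, which share none with the 10-day pair, gave a second reading of the same 22200 transcripts. At 5 days 2922 were higher in spongy flesh by 2-fold or more (13.2%, against 15.2% of all transcripts) and 1825 lower (8.22%, against 9.94% of all). Higher at both stages were 1996 transcripts, against 9.76% of all transcripts. They are 55.8% of those higher at 10 days and 68.3% of those higher at 5 days. Lower at both were 878, against 4.61% of all transcripts, or 39.9% of those lower at 10 days and 48.1% of those lower at 5 days. Among those higher at 10 days, the part also higher at 5 days lay between 53.1% and 59.4% in every class of length. Of all transcripts in the class, 51.3% were higher at 5 days under 300 nt and 6.49% at 3000 nt or more, so that the 22 of 40 found under 300 nt are near the share of their class and the 55.6% found at 3000 nt or more is well above it. Among those lower at 10 days, 1.75% were lower at 5 days under 300 nt, 30.6% at 500 to 1000 nt and 53.4% at 3000 nt or more. The shares of the whole classes were 0.658%, 5.98% and 12.9%. Equal totals per library gave 1639 higher and 7655 lower at 5 days, with 1503 higher at both stages and 26 lower at both.

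On the authors' scaling 236 transcripts of 69 loci were lower in spongy flesh at 10 days but higher at 5 days, against 1.05% of all transcripts, and 139 of them belonged to locus 2. The reverse was found for 50, against 0.576% of all. These counts depend on the scaling, since equal totals per library left 21 lower at 10 days and higher at 5 days, and gave 5793 of the reverse. Equal totals outside loci 2 and 3 gave 201 and 111. Of the 57 transcripts under 300 nt that were lower at 10 days, 44 were higher at 5 days. Of these 44, 36 had locus numbers beyond 14000 and 5 belonged to locus 2, so they are mostly transcripts of the last block. In the last block of locus numbers, beyond 14000, 42 of 76 transcripts had this pattern. The median of that block was -1.70 at 10 days, against 1.92 at 5 days. Nearly all of these 76, 73, were alone in their locus, and their median length was 258 nt. Locus 2 had a similar pair of medians, -2.15 at 10 days and 1.86 at 5 days. With the same total per library the 10-day median of the last block was 0.21, so its direction at 10 days depends on the scaling.

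DESeq2, by the authors' deposited table, gave 0 of the 22200 transcripts an adjusted p under 0.05 at 10 days, against 0% of all, and the smallest was 0.827. An unadjusted p under 0.05 was given in that table to 514 transcripts higher in spongy flesh (1.9% of all transcripts) and 58 lower (0.288% of all). Standard errors of the log2 ratios, again from the authors' deposited table, had a median of 0.81 at means of 50 to 100, 0.60 at 500 to 1000 and 0.87 at 5000 or more. They thus followed the same course with level as the spread of the ratios, but they come from the same libraries and are no separate evidence. Since the authors had 1 library per group, these values carry no replicate error and 0 calls do not show likeness.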

How the data were processed

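RNA of 4 mesocarp samples was made into libraries by Illumina's procedures, per the labels' protocols, and the tools listed in the submitters' processing notes are Bowtie2 2.2.3, CASAVA 1.8.2 and DESeq2. For the assembler, the read counter and filters, nothing is given in the sources used here. Per the file headers, each deposited table gives the mean normalized count, a signal over all 4 libraries divided by size factors, with a log2 fold change and the standard error of it. The ratio of these last values is deposited as a score, the Wald statistic, and the deposited p-value and adjusted p-value are the authors' own.

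Levels per library were solved from the deposited mean and 3 deposited log2 fold changes, which closed around the 4 tables to within 4.80e-14. Divided by 1 step per library, 99.98% of 103976 values of 1 to 999 reads were within 0.05 of a whole number, against 9.90% with the fold changes read the other way round. Above that range 94.9% were whole. Values under 0.35 read were set to 0. Size factors were 1.11 in spongy and 0.389 in healthy flesh at 10 days, and 1.27 in spongy and 1.84 in healthy flesh at 5 days. Which group is healthy rests on the table names.

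Locus number, transcripts per locus and length were read from the transcript numbers. Ratios of the levels with nothing added have exact (Clopper-Pearson) 95% intervals from the split of the reads, and counting errors come from the Poisson variance. The transcripts named are the 2 highest and 2 lowest ratios among 1925 that are alone in their locus, at least 1000 nt long and at a mean of at least 200. The features, classes and alternatives were chosen with earlier results of these data known. Alternatives were 0.5 or 10 added, no minimum or 200, centred ratios, TMM factors (trimming 30% of ratios and 5% of levels), the same total per library, the same total outside loci 2 and 3, leaving those loci out, sums by locus, and other level classes. The steps were tested on simulated data. The software was matplotlib 3.10.9, scipy 1.17.1, pandas 2.3.3 and numpy 2.4.6 under Python 3.11.15.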

Additional observations from a re-analysis of the deposited data

Results flagged for a closer look

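Values on opposite sides of 0 at the 2 stages drew attention to 3 results, and none of these differences was tested. Among the 726 transcripts at means of 5000 or more, the median log2 ratio (spongy over healthy) was -0.31 at 10 days, against 0.14 at 5 days. Without loci 2 and 3 these medians were -0.23 and -0.03 over 339 transcripts. The 152 transcripts under 300 nt had medians of -0.19 at 10 days and 1.02 at 5 days. Among them 44 were 2-fold lower at 10 days and 2-fold higher at 5 days, and 36 of these 44 had locus numbers beyond 14000. The transcript of locus 1060 had a log2 ratio of -4.06 at 10 days, against 0.13 at 5 days, where its counting interval held 1. With the same total per library the medians of the first 2 results at 10 days were 1.61 and 1.71, so their direction depends on the scaling. The 5-day medians of these 2 results were then -0.63 and 0.25, so the second no longer lay on opposite sides of 0. For locus 1060 the same scaling gave -2.14 at 10 days and -0.63 at 5 days, both below 0, and the interval of the 5-day ratio, 0.479 to 0.853, no longer held 1.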

How the results depend on the processing

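Of 149 values recomputed under 16 other settings, 113 stayed within the counting interval, the interval of the median or 1.5 times the main count. No single transcript changed sign at 10 days, but these were chosen for the widest ratios, so a change was hardly possible. Leaving out loci 2 and 3 could not move values of loci of 1 transcript, so the 113 overstate the stability. The median of all transcripts, 0.02, was below 0 in loci 1 to 5500 and for levels of 50 in both libraries. Chosen after seeing the data were the 5-day level, the level in both libraries, loci 1 to 5500, classes per 1000 nt, the other scalings at 5 days, and no minimum for the transcripts near 0 in healthy flesh. Without a minimum 5645 transcripts were higher and 3805 lower in spongy flesh, against 3576 and 2203. A mean of at least 200 left 2065 higher, 1370 lower and 1133 higher at both stages, against 1996 before. With the same total per library 19609 were higher, 130 lower and the median was 1.93. The transcripts 2-fold apart were then 3479 in the lowest level class, 1748 in the longest class, 4061 in loci of 1 transcript and 2299 in loci of over 50. The first 3 of these were 1235, 404 and 1254 before. The highest level class then had 510 of 726 apart and the shortest class 111 of 152. These are smaller shares than in the lowest level class and the longest class, the reverse of the main result. The same total outside loci 2 and 3 gave 6426, 874 and a median of 0.54. Leaving loci 2 and 3 out left 166 transcripts 2-fold apart in the highest level class, against 347. Reads summed by locus gave 1997 loci higher, 543 lower, a median of 0.12 and 1161 higher at both stages. Loci 1 to 5500 alone had 1550 higher and 1922 lower, so that lower ones were more numerous there, a median of -0.10 and 700 higher at both stages. Apart there were 510 in the lowest level class, 25 in the shortest class and 219 in loci of 1 transcript. A level of at least 50 in both libraries gave 2122 higher, a median of -0.026 and 986 higher at both stages. Apart were then 161 in the lowest level class, 64 in the shortest class, against 97, and 649 in loci of 1 transcript. The last 4 settings use fewer transcripts or loci by construction. With the same total the log2 ratio was -2.14 for locus 1060 and -2.07 for locus 1622. No paired analysis was possible because each group is 1 library and the labels carry no replicate numbers, and no library could be left out.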

Other observations

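The transcript numbers also carry a confidence value between 0 and 1, which the sources used here do not define. The 163 transcripts with the value 1 were at least 2-fold lower in spongy flesh at 10 days in 33.7% of cases and higher in 25.2%, while the 5 lower ranges of that value had 5.54% to 14.2% lower and 12.6% to 29.6% higher. At 5 days 4.29% of the 163 were lower and 49.1% higher.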
